A study of Mus musculus with 9 samples.

Results

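The 10 genes followed here encode enzymes of the outer epidermis that process filaggrin, cross-link proteins or, for Sdr9c7, act on lipids. The set is not complete, since other proteases that act on filaggrin are followed in a separate list. The 10 genes are the transglutaminases Tgm1, Tgm3 and Tgm5, the proteases Casp14, Asprv1 and Blmh, the peptidylarginine deiminases Padi1, Padi2 and Padi3, and the dehydrogenase Sdr9c7. They were chosen by symbol for these roles, with earlier results of these data known. All 10 of 10 were found among the 52550 genes of the count table. RNA was sequenced from epidermal ear sheets of C57BL/6 wild type mice (C57BL/6J in the methods) aged 8 weeks, in 3 groups of 3 libraries. The VAS + H2O group received Vaseline on the ears for 5 days and water by gavage. In the IMQ + H2O group, Vaseline was replaced by imiquimod, which activates Toll-like receptor 7 and inflames mouse skin. The IMQ + XYF group received imiquimod and, in place of water, the herbal decoction Xiao-Yin-Fang (XYF) at 23.3 mg/g. Every group was gavaged with 200 µl for 10 days, starting 5 days before the application. Epidermal sheets of a pair of mice are named in the methods, and it is not given if this holds for each library or in all. Legends of the study's RNA figures state n = 3 per group and do not say what is counted. The libraries may therefore stem from few animals, and p-values measure only the spread between them.

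Keratinocytes that leave the living epidermis replace their membrane with the cornified envelope, a shell of cross-linked proteins coated with lipids. Transglutaminases join glutamine and lysine side chains of neighbouring proteins and so build this shell. Profilaggrin is cut to filaggrin, filaggrin is deiminated by peptidylarginine deiminases, and proteases then degrade it to the free amino acids that hold water in the cornified layer. Sdr9c7 oxidises a linoleate-derived group of the ceramides that are bound to the envelope.

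Tgm1, Tgm3, Tgm5 and Blmh were higher in IMQ + H2O than in VAS + H2O, by 2.03-fold to 2.24-fold, while Casp14, Asprv1, Padi1, Padi2 and Sdr9c7 did not pass the test in any of the 3 comparisons. The promoters of the 4 genes that rose are shown because these genes passed the test in the same comparisons. Each runs from 250 bases before to 50 bases after a RefSeq transcription start on GRCm38.p6 and is written 5′ to 3′ along the gene. The windows of Tgm1 and Blmh lie inside the gene spans given below, which come from GENCODE. Their RefSeq starts therefore differ from the 5′ ends of those spans. RefSeq promoters matched all 10 members, and Tgm1 had a second start whose promoter is not printed. Capitals mark every match, on either strand, to 1 of 4 motifs searched: AP-1 (TGANTCA), GRHL (AACNNGTT), a TATA box (TATAAA) and KLF (CCACCC).
Tgm1, chr14:55713443-55713742, minus strand: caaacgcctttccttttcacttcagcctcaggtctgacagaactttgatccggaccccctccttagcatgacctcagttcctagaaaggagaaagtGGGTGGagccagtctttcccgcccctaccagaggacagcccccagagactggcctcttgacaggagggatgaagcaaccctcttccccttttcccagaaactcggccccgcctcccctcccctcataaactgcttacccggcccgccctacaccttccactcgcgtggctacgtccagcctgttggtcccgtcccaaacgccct
Tgm3, chr2:130012090-130012389, plus strand: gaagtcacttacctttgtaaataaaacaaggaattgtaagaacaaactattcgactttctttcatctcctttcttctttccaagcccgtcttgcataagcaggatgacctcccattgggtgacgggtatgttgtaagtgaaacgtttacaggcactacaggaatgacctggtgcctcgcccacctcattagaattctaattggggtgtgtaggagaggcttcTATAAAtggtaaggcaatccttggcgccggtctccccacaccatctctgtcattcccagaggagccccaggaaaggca
Tgm5, chr2:121085792-121086091, minus strand: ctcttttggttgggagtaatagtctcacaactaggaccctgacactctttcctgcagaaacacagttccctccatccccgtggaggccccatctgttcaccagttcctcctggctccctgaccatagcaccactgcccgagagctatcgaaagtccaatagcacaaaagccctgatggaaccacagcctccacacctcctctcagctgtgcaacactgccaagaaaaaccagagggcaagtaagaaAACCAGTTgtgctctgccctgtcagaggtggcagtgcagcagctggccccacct
Blmh, chr11:76945406-76945705, plus strand: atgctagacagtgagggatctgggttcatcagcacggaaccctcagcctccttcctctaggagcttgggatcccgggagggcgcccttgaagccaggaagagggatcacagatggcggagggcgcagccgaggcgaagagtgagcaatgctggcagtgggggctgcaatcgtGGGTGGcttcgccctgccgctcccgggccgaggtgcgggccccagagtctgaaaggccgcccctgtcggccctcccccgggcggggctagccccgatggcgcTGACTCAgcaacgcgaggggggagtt
None of these motifs was found in all 4 promoters. Blmh alone among the 10 members matched AP-1, beginning 25 bases after its start, against 7.81% of the 32851 mouse promoters. Tgm5 alone matched GRHL, beginning 4 bases before its start, against 4.20% of promoters. A TATA box was found in 2 members, Tgm3 and Sdr9c7, against 13.6% of promoters. The KLF letters stood in 6 members, of which Tgm1 and Blmh were among the 4 that rose, against 31.5% of promoters. No other matches to the 4 motifs lay in the printed windows, which says only that these letters are absent there.

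Depth was 30298275 to 64771160 counts per library, and values are given as normalised counts (CPM, counts scaled to library size) with TMM factors. A count of 3, the floor used here, was worth 0.0471 to 0.104 CPM, and floors cover counting error only. Keratinocyte markers were abundant in every library: the 5 basal markers summed to 15290 to 19710 CPM in VAS + H2O, 21183 to 24403 in IMQ + H2O and 22217 to 23969 in IMQ + XYF. The 5 spinous markers summed to 29555 to 36434, 31679 to 47908 and 33949 to 38904 CPM. Within both lists, single markers went opposite ways in IMQ + H2O against VAS + H2O. Log2 fold changes were 0.72 for Krt14 and -0.42 for Col17a1 (edgeR adjusted p of 0.0227 and 0.0375). They were 1.45 for Krt1 and -0.44 for Dsg1a (edgeR adjusted p of 0.00890 and 0.101). Cartilage markers, 6 of 6 in the table, summed to 161 to 378 CPM in VAS + H2O, 31.7 to 72.5 in IMQ + H2O (Matn3 at 0) and 113 to 172 in IMQ + XYF. VAS + H2O replicate 2 stood apart with 624 CPM of 6 dermal fibroblast markers and 122 CPM of 5 skeletal muscle markers, against 201 and 36.5 CPM at most in the other libraries. IMQ + H2O replicate 3 also stood apart, with a chi-square per gene of 82.7 and 78.1 against the other 2 of its group, which differed by 26.1, and of 31.2 to 46.7 within the other groups. It had the lowest spinous sum of its group, 31679 CPM. Sebaceous gland markers, 6 of 6 in the table, summed to 2836 to 5263 CPM in VAS + H2O, 1647 to 2217 in IMQ + H2O and 1839 to 2282 in IMQ + XYF. Scd1 alone of these 6 passed the test, from a mean of 3740 to 1701 CPM (edgeR adjusted p = 0.0188, IMQ + H2O against VAS + H2O), while Awat1 had means of 22.2 and 30.5 CPM. In these bulk samples, a changed share of cells of a type and changed RNA per cell cannot be told apart.

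**Figure D1:**
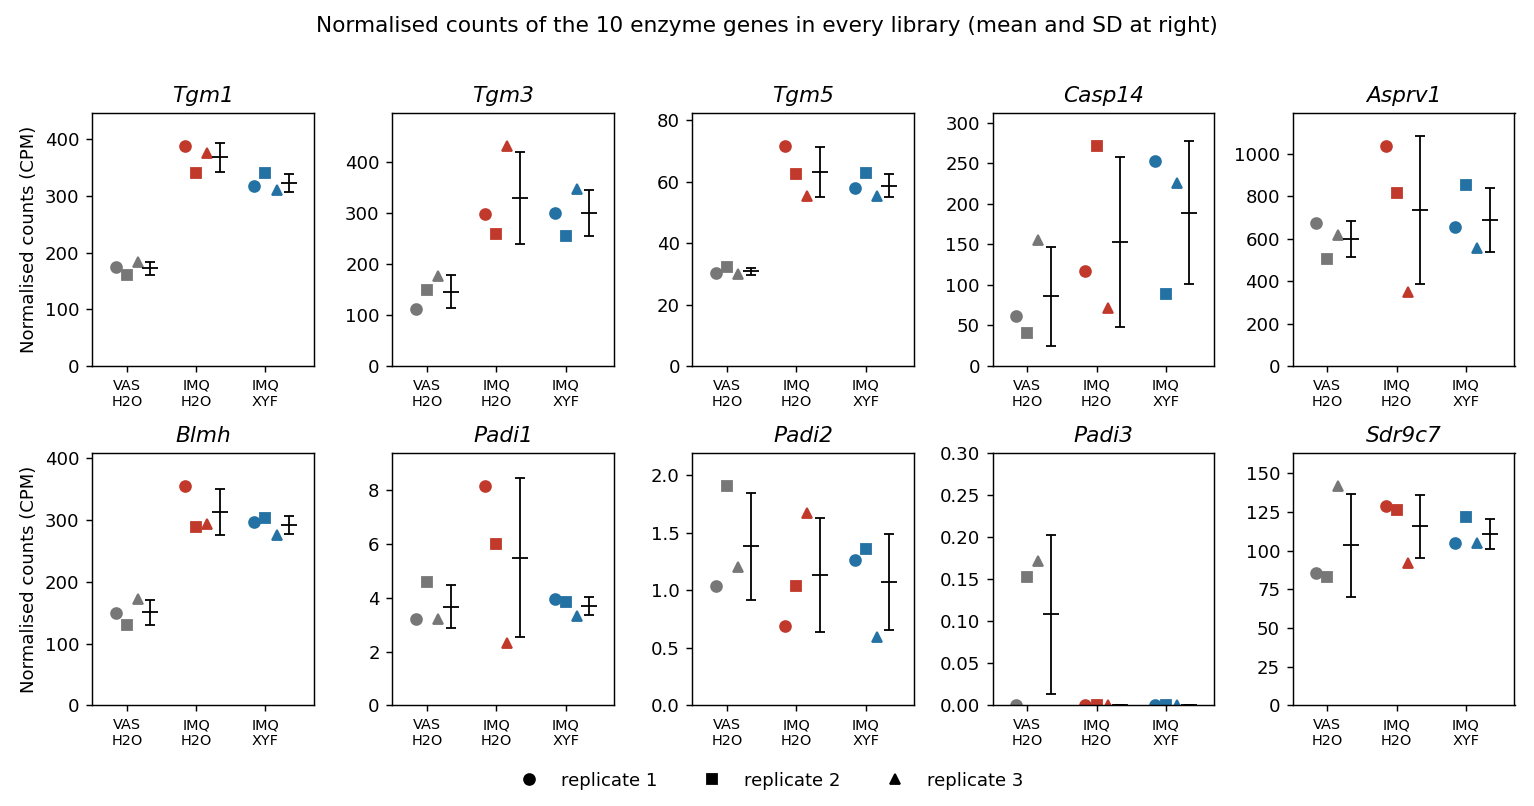
Normalised counts (CPM, vertical axis from 0) of each of the 10 genes in the 3 groups. Symbols are single libraries by replicate number, and the bar beside them is the mean with SD (n = 3). Tgm1, Tgm3, Tgm5 and Blmh lie lower in all 3 VAS + H2O libraries than in any imiquimod library, and Padi3 is at 0 in 7 of 9 libraries.

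Imiquimod and Vaseline were compared first, with water in both groups. Of the 9 members tested, 4 were higher and 0 lower at an adjusted p of at most 0.05 (edgeR quasi-likelihood test, Benjamini-Hochberg adjustment over 18009 genes). Over all genes tested, 12.7% were higher and 9.41% lower. All 4 also reached a log2 fold change of 1, the cutoff for a DEG, as 3.64% of genes did in the same direction. Their groups did not overlap, as was so for 23.4% of genes in this direction. The median log2 fold change was 0.83 over the 9 members and -0.03 over all genes tested. The median of the members was the value of Casp14, which did not pass.

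Tgm1 encodes the membrane-anchored transglutaminase of the envelope and lies on chromosome 14 at 55700009-55713926 (GRCm38, minus strand, 17 exon blocks), where 182 exon bases are shared with the antisense gene Gm49067, which was not counted in the table. It measured 174, 160 and 183 CPM in VAS + H2O, 388, 340 and 376 CPM in IMQ + H2O, and 317, 341 and 310 CPM in IMQ + XYF. Every imiquimod library lay above every Vaseline library. The mean went from 172 ± 11.4 CPM (SD, n = 3) to 368 ± 24.9 CPM, or 1.08 on the log2 scale (SE 0.09, edgeR adjusted p = 0.00350). It was the gene with the smallest p among the members in this comparison.

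Tgm3, on chromosome 2 at 130012349-130050399 (plus strand), encodes a cytosolic transglutaminase that is made as an inactive precursor. It measured 112, 149 and 176 CPM in VAS + H2O, 298, 258 and 431 CPM in IMQ + H2O, and 299, 255 and 346 CPM in IMQ + XYF. The highest value, in IMQ + H2O replicate 3, widened the spread of its group, but no VAS + H2O library reached the imiquimod libraries. Its mean went from 146 ± 31.8 to 329 ± 90.6 CPM (SD, n = 3), which is a log2 difference of 1.17 (SE 0.24, edgeR adjusted p = 0.0184). Without VAS + H2O replicate 1 the edgeR adjusted p was 0.0534, and without VAS + H2O replicate 2, the library with the fibroblast and muscle markers, it was 0.0596, at log2 fold changes of 1.0 and 1.19.

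Tgm5, on chromosome 2 at 121046111-121085841 (minus strand), encodes a transglutaminase of the upper epidermis. It had the steadiest Vaseline values of the members, with 30.4, 32.1 and 30.0 CPM in VAS + H2O. The IMQ + H2O libraries held 71.6, 62.5 and 55.4 CPM, and the IMQ + XYF libraries 57.9, 62.8 and 55.4 CPM. All imiquimod libraries were higher than all Vaseline libraries. IMQ + H2O exceeded VAS + H2O by 1.02 on the log2 scale (SE 0.11, edgeR adjusted p = 0.00575).

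Blmh encodes bleomycin hydrolase, a cysteine protease of the last steps of filaggrin breakdown, and lies on chromosome 11 at 76924809-76987379 (plus strand). It measured 150, 131 and 172 CPM in VAS + H2O, 356, 289 and 294 CPM in IMQ + H2O, and 297, 303 and 276 CPM in IMQ + XYF. The Vaseline and imiquimod libraries did not overlap. The mean went from 151 ± 20.4 to 313 ± 37.2 CPM (SD, n = 3), or 1.04 on the log2 scale (SE 0.13, edgeR adjusted p = 0.00714).

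These 4 calls of IMQ + H2O over VAS + H2O were not made when the mean log2 CPM of the cartilage and fibroblast markers was added to the fit as a covariate. Their log2 fold changes were then 0.96, 1.27, 1.16 and 0.82 for Tgm1, Tgm3, Tgm5 and Blmh, with edgeR adjusted p of 0.216 to 0.399, and no gene of the whole table passed, against 3986 without the covariate. The cartilage sums of the 2 groups did not overlap. Without VAS + H2O replicate 2 the log2 fold changes of Tgm1, Tgm5 and Blmh were 1.04, 1.06 and 0.96, with edgeR adjusted p of 0.0192 to 0.0266. Without IMQ + H2O replicate 3 all 4 genes passed, with log2 fold changes of 1.07 for Tgm1, 0.92 for Tgm3, 1.11 for Tgm5 and 1.08 for Blmh and edgeR adjusted p of 0.00585 to 0.0363. DEGs among the members numbered 2 without VAS + H2O replicate 2 and 2 without IMQ + H2O replicate 1, since log2 fold changes close to 1 moved below it or the adjusted p rose.

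Casp14 encodes caspase-14, which is found mainly in differentiating epithelia and cuts filaggrin units, and lies on chromosome 10 at 78711991-78718294 (minus strand). It varied more than any other tested member within each of the 3 groups. It measured 62.1, 40.5 and 155 CPM in VAS + H2O, 117, 271 and 71.5 CPM in IMQ + H2O, and 253, 88.4 and 226 CPM in IMQ + XYF. The groups overlapped, and within a group the highest library held 2.86 to 3.82 times the lowest. These values rest on 1336 to 16103 counts per library, so counting error is small beside the spread. The log2 fold change of IMQ + H2O over VAS + H2O was 0.83 with a 95% interval of -0.64 to 2.29 (edgeR adjusted p = 0.370), which holds both no change and the size seen for the transglutaminases. Without IMQ + H2O replicate 2 it was 0.16, and without VAS + H2O replicate 3 it was 1.60, with edgeR adjusted p of 0.868 and 0.116.

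Asprv1 encodes the retroviral-like aspartic protease SASPase, which cuts the linkers of profilaggrin, from a single exon on chromosome 6 at 86628164-86629710 (plus strand). It measured 673, 503 and 616 CPM in VAS + H2O, 1035, 815 and 350 CPM in IMQ + H2O, and 656, 851 and 557 CPM in IMQ + XYF. IMQ + H2O held both the highest and the lowest of the 9 libraries. Asprv1 had a log2 fold change of 0.28 with a 95% interval of -0.56 to 1.13 (edgeR adjusted p = 0.599). Without IMQ + H2O replicate 3, the lowest library, it was 0.62 (edgeR adjusted p = 0.0575).

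The peptidylarginine deiminases convert arginine to citrulline, and their 5 mouse genes lie within 225.2 kb of chromosome 4. Padi1, at 140812983-140845778 on the minus strand, measured 3.19, 4.58 and 3.21 CPM in VAS + H2O, 8.15, 5.98 and 2.31 CPM in IMQ + H2O, and 3.93, 3.85 and 3.30 CPM in IMQ + XYF. As for Asprv1, both the highest and the lowest library were in IMQ + H2O, and the lowest was again replicate 3. The log2 fold change was 0.56 with a 95% interval of -0.48 to 1.60 (edgeR adjusted p = 0.390), and 0.93 without that library (edgeR adjusted p = 0.0704). Padi1 shares 1200 exon bases with Gm13032 on the opposite strand, which had 0 to 8 counts per library against 100 to 250 for Padi1.

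Padi2, at 140906344-140952586 on the plus strand, had only 20 to 80 counts per library. It measured 1.04, 1.91 and 1.20 CPM in VAS + H2O, 0.691, 1.04 and 1.67 CPM in IMQ + H2O, and 1.26, 1.36 and 0.598 CPM in IMQ + XYF. The groups overlapped, and the log2 fold change of -0.29 had a 95% interval of -1.25 to 0.68 (edgeR adjusted p = 0.644). It shares 149 exon bases with the antisense gene Gm13031, which had 0 to 5 counts. Padi3, at 140785365-140810648 on the minus strand, encodes the deiminase that also acts on trichohyalin in hair follicles. It had 0, 5 and 6 counts in VAS + H2O and 0 in all 6 imiquimod libraries, and failed the filter on low counts in each comparison. A count of 0 allows up to 0.0471 to 0.104 CPM in these libraries, and the 2 libraries with counts held 0.152 and 0.172 CPM. The 7 hair shaft markers in the table were also low, with sums of 0 to 2.81 CPM in VAS + H2O and at most 0.126 CPM elsewhere. Sums of the 6 inner root sheath markers overlapped between the groups. They were 1.46 to 12.4 CPM in VAS + H2O, 1.48 to 2.76 in IMQ + H2O and 0.955 to 2.18 in IMQ + XYF. Tchh, the trichohyalin gene, had means of 18.4, 17.1 and 15.7 CPM in these groups. The part of hair follicle cells in the Padi3 values was not tested.

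Sdr9c7, on chromosome 10 at 127898518-127911761 (plus strand), measured 85.8, 83.0 and 142 CPM in VAS + H2O, 129, 126 and 92.2 CPM in IMQ + H2O, and 105, 122 and 105 CPM in IMQ + XYF. The groups overlapped. The log2 fold change of 0.15 had a 95% interval of -0.40 to 0.70 (edgeR adjusted p = 0.672), so a change of the size seen for Tgm1, at 1.08, lay outside it.

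**Figure D2:**
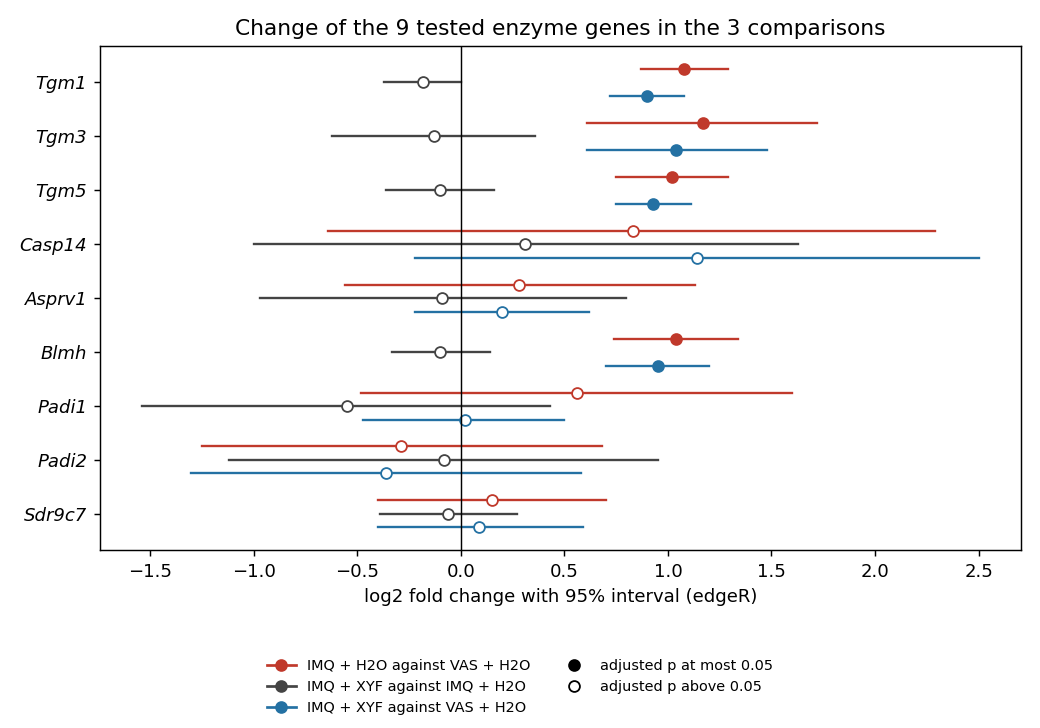
Log2 fold change (horizontal axis) with its 95% interval from edgeR for the 9 tested genes, in the 3 comparisons of 3 against 3 libraries. Filled points have an adjusted p of at most 0.05. The points of Tgm1, Tgm3, Tgm5 and Blmh lie at 0.90 to 1.17 against VAS + H2O, and all points of IMQ + XYF against IMQ + H2O are open.

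Setting IMQ + XYF against IMQ + H2O asked whether the decoction moved these genes in imiquimod-treated skin. None of the 9 tested members passed (edgeR, 0 of 9), 0 had an unadjusted p under 0.05, and DESeq2 called 0. Over all 17793 genes tested, 5 passed (0.0281%), DESeq2 called 165, and 966 had an unadjusted p under 0.05 (5.43%). The groups overlapped for all 9 members, while 10.7% of all genes did not overlap. The median log2 fold change was -0.10 over the members and 0.00 over all genes.

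Of the 4 genes that rose with imiquimod, Tgm1 came closest to a difference, with a log2 fold change of -0.18 and a 95% interval of -0.37 to 0.00 (edgeR adjusted p = 0.930). The intervals were -0.36 to 0.16 for Tgm5 and -0.33 to 0.14 for Blmh, both around -0.10. That of Tgm3 was wider, from -0.62 to 0.36 around -0.13. A fall as large as the rise with imiquimod lay outside the interval of each of these 4 genes. For Sdr9c7 the interval was -0.39 to 0.27. The intervals of Casp14 (-1.0 to 1.63), Asprv1 (-0.97 to 0.80), Padi1 (-1.54 to 0.43) and Padi2 (-1.12 to 0.95) were wider than these. All of the intervals left changes of either sign possible. That of Tgm1 ended at 0.00 only after rounding, with an unadjusted edgeR p of 0.0539.

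IMQ + XYF was then set against VAS + H2O, which shares its libraries with the first comparison. Tgm1, Tgm3, Tgm5 and Blmh were higher, 4 of 9 members tested, and 0 were lower, while 16.7% of the 17954 genes tested were higher and 12.0% lower. For these 4 genes the groups did not overlap, as for 25.1% of genes in this direction. The log2 fold changes over VAS + H2O were 0.90 for Tgm1, 1.04 for Tgm3, 0.93 for Tgm5 and 0.95 for Blmh, with SEs of 0.08, 0.18, 0.08 and 0.11 and edgeR adjusted p of 0.000896, 0.00756, 0.000889 and 0.00179. Tgm3 alone reached the log2 cutoff of 1 for a DEG, as 4.58% of genes did upward. That count was 0 without VAS + H2O replicate 1 or without IMQ + XYF replicate 3, and 3 without VAS + H2O replicate 3. Without VAS + H2O replicate 2 the 4 genes passed as well, with edgeR adjusted p of 0.00385 to 0.0270. The median was 0.90 over the 9 members and -0.04 over all genes.

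In the same comparison Casp14 had the largest estimate of the members, 1.14, but its 95% interval ran from -0.22 to 2.5 (edgeR adjusted p = 0.180). Without VAS + H2O replicate 3, the Vaseline library with the most Casp14, the value was 1.90 (edgeR adjusted p = 0.0423), and Sdr9c7 passed as well at 0.41 (edgeR adjusted p = 0.0281). Asprv1 at 0.20, Padi1 at 0.02, Padi2 at -0.36 and Sdr9c7 at 0.09 did not pass with all libraries.

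**Figure D3:**
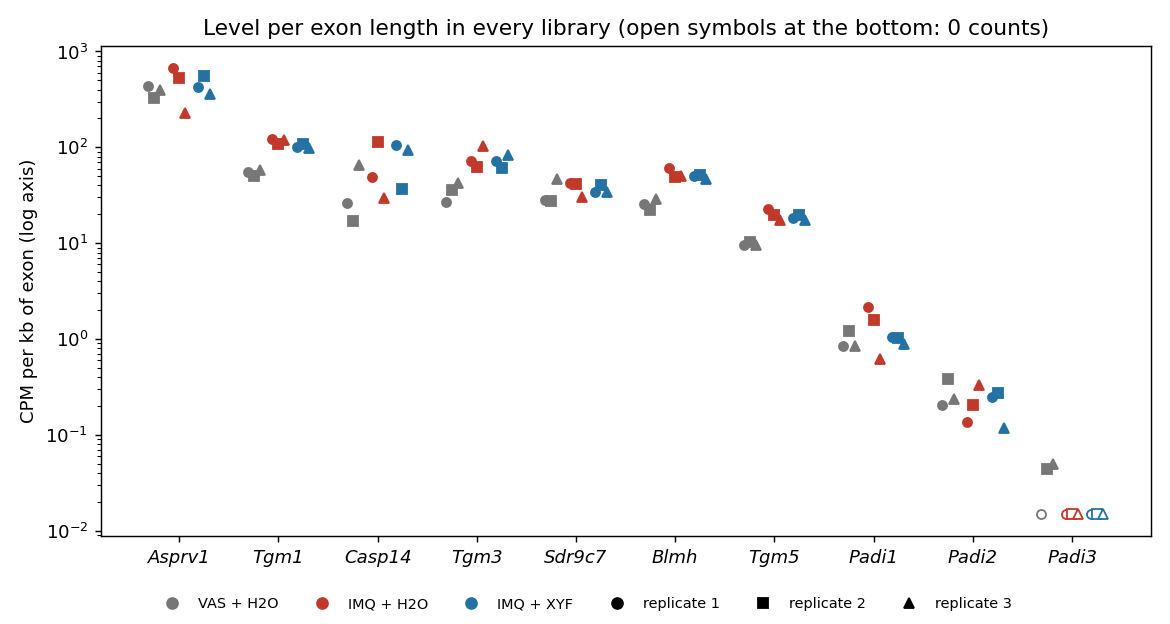
CPM per kb of exon (vertical log axis) of the 10 genes in each library, with colours for groups and symbols for replicates. Open symbols at the bottom stand for 0 counts. Asprv1 is highest in every library, and the 3 deiminases are lowest.

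Levels between genes were compared as CPM per kb of exon. Asprv1 led in every library, with means of 386 CPM per kb in VAS + H2O, 474 CPM per kb in IMQ + H2O and 445 CPM per kb in IMQ + XYF. In VAS + H2O it exceeded 99.5% of the genes that passed the filter over all 9 libraries. Tgm1 was next, at 54.5 CPM per kb in VAS + H2O and 116 in IMQ + H2O. Casp14, Tgm3, Sdr9c7 and Blmh followed at 35.9, 35.2, 34.1 and 25.6 CPM per kb in VAS + H2O, where Tgm1 overlapped Casp14 and each of the others overlapped its neighbour in the order. In IMQ + H2O, Blmh stood above Sdr9c7 in 3 of 3 libraries, while in VAS + H2O Sdr9c7 stood above Blmh in 3 of 3. Tgm5 was below these at 9.77 CPM per kb in VAS + H2O. Padi1 at 0.975, Padi2 at 0.276 and Padi3 at 0.0313 CPM per kb were last in that order, and their ranges did not overlap.

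Within the transglutaminases, the shares of Tgm1, Tgm2, Tgm3 and Tgm5 overlapped between the groups, while that of Tgm7 did not overlap between Vaseline and imiquimod. Of the summed level per length of these 5 genes, Tgm1 made up 47.9% to 56.5%, Tgm3 27.8% to 42.0%, Tgm5 7.07% to 10.4% and Tgm2 0.593% to 3.20% across the 9 libraries. Tgm7 made up 3.52% to 4.38% in VAS + H2O and 0.405% to 1.52% in the imiquimod libraries. The mean log2 ratio of Tgm1 to Tgm3 was 0.27 ± 0.32 with Vaseline, 0.19 ± 0.34 with imiquimod and water, and 0.12 ± 0.29 with imiquimod and XYF (SD, n = 3). That of Tgm1 to Tgm5 was 2.48 ± 0.15, 2.55 ± 0.19 and 2.46 ± 0.02. Over 6 ratios and 3 comparisons, 18 exact two-sided permutation tests gave adjusted p of 0.720 or 1.0. With 3 against 3 libraries the smallest p that such a test can give is 0.1, so these tests could not reach 0.05. The ratio of Padi1 to Padi2 spread most, at 2.13 ± 1.53 in IMQ + H2O against 1.40 ± 0.17 in VAS + H2O. Ratios to Padi3 are not given as values, because Padi3 was at 0 in 7 libraries and its ratio then depends on the prior count.

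**Figure D4:**
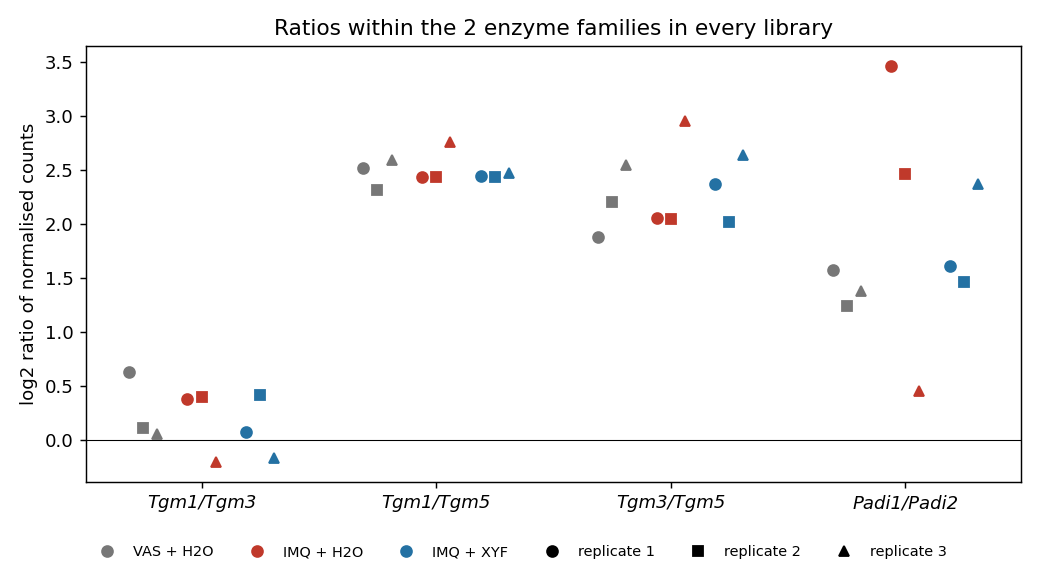
Log2 ratio of normalised counts (vertical axis) for 3 pairs of transglutaminases and for Padi1 to Padi2, in each of the 9 libraries. Colours are groups and symbols replicates. For the transglutaminase pairs the 3 groups overlap, and the widest spread is that of Padi1 to Padi2 in IMQ + H2O.

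The other genes of the 2 enzyme families were followed as well. Of 5 other genes of the transglutaminase family, 4 were tested, and 1 fell with imiquimod and water against Vaseline. This was F13a1, the A subunit of coagulation factor XIII, which is made by macrophages, at 4.63, 5.22 and 3.12 CPM in VAS + H2O and 1.0, 0.936 and 1.43 CPM in IMQ + H2O (log2 fold change -1.95, edgeR adjusted p = 0.00991). In IMQ + XYF it measured 4.79, 2.62 and 2.56 CPM, above all IMQ + H2O libraries, but that comparison did not pass (log2 fold change 1.57, edgeR adjusted p = 0.415), while DESeq2 called 1 gene of the 4 there. The dermal fibroblast markers summed to 66.3 to 624 CPM in VAS + H2O, 44.6 to 51.7 CPM in IMQ + H2O and 69.6 to 201 CPM in IMQ + XYF, and the part of dermal cells in the F13a1 values was not tested. The 5 macrophage markers summed to 31.8 to 43.5 CPM in VAS + H2O, 29.2 to 44.1 CPM in IMQ + H2O and 28.1 to 35.2 CPM in IMQ + XYF, which overlapped. Tgm7, which lies beside Tgm5 within 63.7 kb of chromosome 2, went the other way from its neighbour. It measured 9.20, 7.80 and 10.2 CPM in VAS + H2O, 2.24, 6.37 and 2.22 CPM in IMQ + H2O, and 2.28, 2.25 and 1.77 CPM in IMQ + XYF. The difference in log2 was -1.34 in IMQ + H2O over VAS + H2O (edgeR adjusted p = 0.0647) and -2.11 in IMQ + XYF over VAS + H2O (edgeR adjusted p = 0.000951), the 1 edgeR call of that list in that comparison. Without IMQ + H2O replicate 2, Tgm7 also passed by edgeR in IMQ + H2O over VAS + H2O. DESeq2 called 2 genes of the list in each of these comparisons, in either direction.

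Tgm2, the widely expressed tissue transglutaminase, measured 5.88 to 12.3 CPM in VAS + H2O, 6.01 to 29.7 CPM in IMQ + H2O and 9.40 to 29.2 CPM in IMQ + XYF, and did not pass (log2 fold change 0.77, edgeR adjusted p = 0.427, IMQ + H2O over VAS + H2O). Tgm4 had 0.94 with an edgeR adjusted p of 0.140, and Tgm6 had 0 counts in all 9 libraries. Padi4, the deiminase known from neutrophils, had 0.94 (edgeR adjusted p = 0.209) at 9 to 52 counts per library. The 6 neutrophil markers summed to 10.8 to 12.6 CPM in VAS + H2O, where Ly6g, Mpo and Retnlg were at 0, and to 49.2 to 97.0 CPM in IMQ + H2O. Cxcr2 made up most of these sums, with means of 11.4 and 60.1 CPM, while in IMQ + H2O Ly6g, Mpo, Camp and Ngp reached at most 0.509 CPM and Retnlg measured 0, 0.390 and 15.3 CPM. The part of those cells in the Padi4 values was not tested.

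Substrates of these enzymes were followed in 2 lists. Of 5 tested genes of the filaggrin family, 0 passed in IMQ + H2O against VAS + H2O (edgeR), 0 had an unadjusted p under 0.05, and DESeq2 called 0. Flg itself, which encodes profilaggrin, measured 523, 559 and 431 CPM in VAS + H2O, 1014, 536 and 159 CPM in IMQ + H2O, and 269, 422 and 265 CPM in IMQ + XYF. Its lowest library was IMQ + H2O replicate 3, the one with the lowest Asprv1 and Padi1. The log2 fold change of Flg was 0.16 (edgeR adjusted p = 0.861), and those of Hrnr, Flg2 and Tchh were 0.64, -0.88 and -0.12 (edgeR adjusted p of 0.189, 0.198 and 0.579). Without IMQ + H2O replicate 3, Hrnr passed. In IMQ + XYF over VAS + H2O, Flg at -0.66 and Flg2 at -0.60 were lower and Hrnr at 0.65 was higher, with edgeR adjusted p of 0.0487, 0.0385 and 0.0188, against 16.7% of all genes higher and 12.0% lower. With 1 library left out in turn, Flg passed in 1 of 6 fits, Flg2 in 2 and Hrnr in 5, the exception being without VAS + H2O replicate 2. Between IMQ + XYF and IMQ + H2O these 3 genes did not pass, with -0.83, 0.28 and 0.00 (edgeR adjusted p of 1.0 each).

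Of 9 tested envelope substrates of the transglutaminases, in IMQ + H2O 4 were higher and 0 lower than in VAS + H2O, against 12.7% and 9.41% of all genes tested. These 4 passed with any 1 library left out. Sprr1b, a small proline-rich envelope protein, measured 47.0, 71.7 and 71.9 CPM in VAS + H2O, 426, 402 and 914 CPM in IMQ + H2O, and 511, 212 and 509 CPM in IMQ + XYF. The log2 fold change of Sprr1b was 3.18 and that of its relative Sprr1a was 2.32, with edgeR adjusted p of 0.00663 and 0.0123, and reads may be shared between these close relatives. Ivl, which encodes involucrin, an early scaffold of the envelope, rose by 1.10 and Cnfn, which encodes cornifelin, by 0.91 on the log2 scale (edgeR adjusted p of 0.00743 and 0.00806). In IMQ + XYF against VAS + H2O, 4 of 9 were higher, and Scel, which encodes sciellin and was picked out after its value was seen, was lower, at -0.31 (edgeR adjusted p = 0.0170), which held in 1 of 6 fits with a library left out. In IMQ + XYF against IMQ + H2O 0 of 9 passed, with 0 at an unadjusted p under 0.05 and 0 by DESeq2.

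Among 12 proteases and inhibitors that act on filaggrin, on corneodesmosomes or on transglutaminases, in IMQ + H2O 4 were higher and 0 lower than in VAS + H2O by edgeR, beside 12.7% and 9.41% of all genes. DESeq2 called 6 of the 12 there, in either direction. Klk7, a serine protease of desquamation, went from 500 ± 56.7 to 907 ± 61.4 CPM (SD, n = 3, log2 fold change 0.85, edgeR adjusted p = 0.00744). Lgmn, the cysteine protease legumain, went from 27.7 ± 2.35 to 55.9 ± 10.1 CPM (1.0, edgeR adjusted p = 0.00975). Ctsd, an aspartic protease of lysosomes, and St14, the membrane serine protease matriptase, rose by 0.45 and 0.29 (edgeR adjusted p of 0.0301 and 0.0444). Klk7 and Lgmn passed with any 1 library left out, Ctsd only without IMQ + H2O replicate 3 and St14 in none of the 6 fits, so that 2 passed without VAS + H2O replicate 2 or 3 or without IMQ + H2O replicate 1 or 2. Hal and Ggct, of the breakdown of filaggrin amino acids, had -0.21 and 0.17 and did not pass (edgeR adjusted p of 0.463 and 0.380).

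Around Sdr9c7, 6 of 12 lipid envelope genes were higher and 0 were lower with imiquimod and water, where 12.7% and 9.41% of all genes were, while Sdr9c7 did not pass. With 1 library left out, 5 to 7 were higher by edgeR, and with all libraries DESeq2 called 8 of the 12, in either direction. Cers3, the synthase of the very long ceramides of the barrier, went from 80.8 ± 5.11 to 163 ± 11.2 CPM (SD, n = 3, log2 fold change 1.0, edgeR adjusted p = 0.00355). Ephx3, an epoxide hydrolase, went from 46.8 ± 8.05 to 95.4 ± 5.50 CPM (1.02, edgeR adjusted p = 0.00754). Nipal4 and Ugcg had 0.82 and 0.47 (edgeR adjusted p of 0.00693 and 0.0105). In IMQ + XYF against VAS + H2O, 8 of the 12 lipid genes and 6 of the 12 proteases and inhibitors were higher, and 0 of either list were lower, against 16.7% and 12.0% of all genes. The count of proteases and inhibitors was 3 without VAS + H2O replicate 2 and 3 without IMQ + XYF replicate 3, 4 without IMQ + XYF replicate 1, and that of the lipid genes 6 to 7. In IMQ + XYF against IMQ + H2O none of the 12 proteases and inhibitors and none of the 12 lipid genes passed by edgeR or DESeq2, with 1 gene of each list at an unadjusted p under 0.05.

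**Figure D5:**
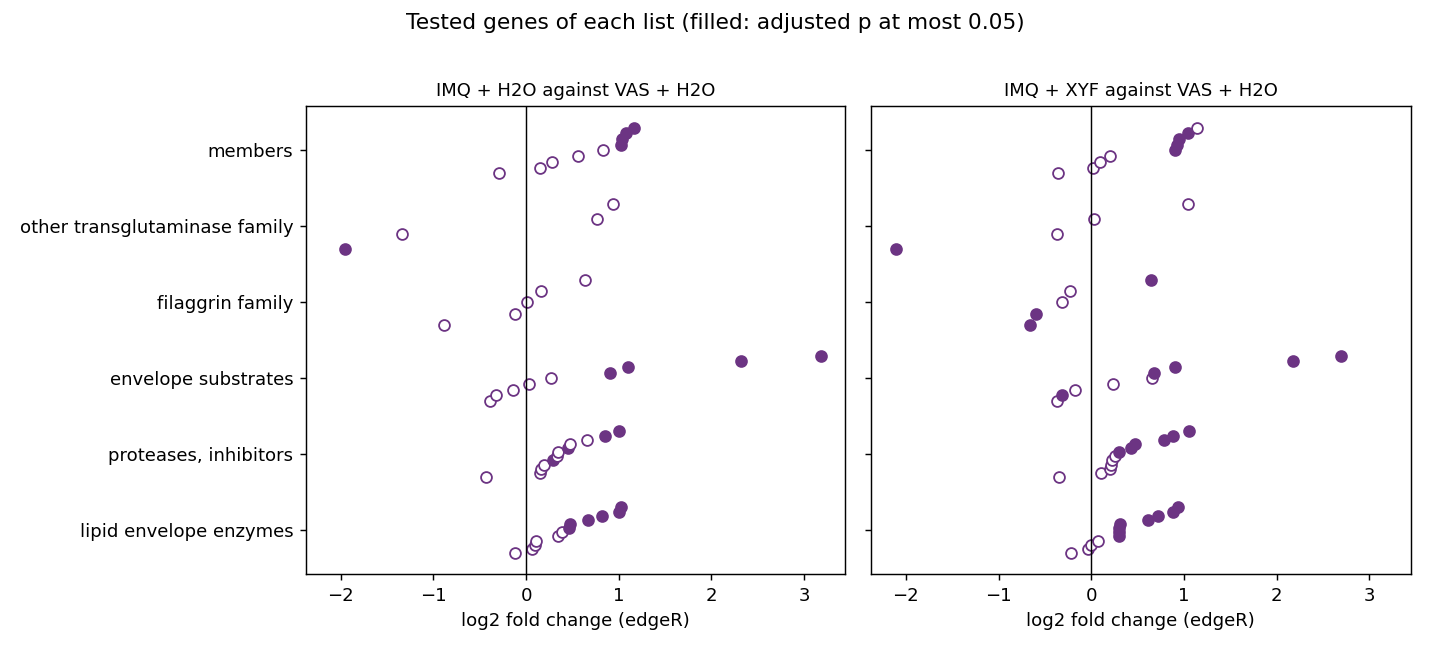
Log2 fold change (horizontal axis) of each tested gene by list, in IMQ + H2O against VAS + H2O (left) and in IMQ + XYF against VAS + H2O (right), which share the VAS + H2O libraries. Filled points have an adjusted p of at most 0.05 by edgeR. On the left 4 of 9 members, 4 of 9 envelope substrates, 6 of 12 lipid genes and 0 of 5 filaggrin family genes are filled to the right of 0.

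The genes whose pattern over the 9 libraries was most like that of a member were looked up among 14760 genes by the Pearson correlation of log2 CPM. The 9 libraries share 3 groups, so genes that differ between groups in the same way score high. For Tgm1 these were Polr2g (r = 0.996) and Slc10a6 (r = 0.995), for Tgm3 Morc4 (0.989) and Pop1 (0.986), and for Tgm5 Pinlyp (0.990) and Aox4 (0.988). For Blmh they were Slc9a3r1 (0.994) and Ivl (0.994), the involucrin gene described above. Asprv1 was most like Psapl1 (0.984) and Cysrt1 (0.968), Casp14 like Dlg1 (0.965) and Fuca2 (0.943), and Sdr9c7 like Xpnpep1 (0.969) and Aadacl2 (0.933). Padi1 was most like Fam214b (0.936) and Rit1 (0.930), and Padi2 like Usp35 (0.951) and Dqx1 (0.896). Padi3, below the filter, was not compared.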

How the data were processed

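Epidermal RNA was sequenced in 9 libraries, and groups were taken from the deposited labels. The methods state TruSeq libraries, alignment with STAR to GRCm38 (Ensembl release 90 annotation), StringTie and DESeq2, and the submitters' processing notes list FastQC, STAR 2.5, Cuffnorm and DESeq 1.22.1. The authors deposited whole-number counts per gene without normalization. The counting tool and its strand setting are not given in the sources used here, so reads of overlapping antisense genes may be shared. Values of 3 (9718) were about as frequent as values of 2 (9436), and whether small values are rounded estimates was not tested.

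Each comparison was fitted on its 6 libraries with edgeR 4.0.16 in R 4.3.3 (filterByExpr, TMM, quasi-likelihood test, Benjamini-Hochberg adjustment over all genes tested). A DEG needed both an adjusted p no higher than 0.05 and a log2 fold change of at least 1 in either direction. Standard errors came from the test statistic, and 95% intervals used its degrees of freedom. CPM used TMM factors over 9 libraries, log2 ratios a prior count of 2, and lengths the exon union of GENCODE M21 (GRCm38). The fits were also run on simulated counts, and the outcome of that run is not given here. Alternatives were DESeq2 1.42.0, RLE factors, other filters, all 9 libraries in 1 fit, a replicate block, a cartilage and fibroblast covariate and each library left out. The members and lists were chosen with earlier results of these data known. Besides the members, up to 4 genes per list with the smallest p in IMQ + H2O against VAS + H2O were named, and for each member the 2 most correlated genes of at least 1 mean CPM.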

Additional observations from a re-analysis of the deposited data

How the results depend on the processing

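With the cartilage and fibroblast covariate, 0 members passed, 0 were DEGs and 0 of all genes passed in IMQ + H2O against VAS + H2O, where 4, 4 and 3986 did without it. The covariate differs between these groups, and the cause was not tested. Leaving out 1 library at a time, 3 to 4 members passed there, 2 to 4 were DEGs, and 1446 to 3077 of all genes passed. All genes passing in IMQ + XYF against IMQ + H2O, 5 by edgeR, numbered 165 with DESeq2, 0 with the replicate block, 0 with the covariate, 1 with all 9 libraries in 1 fit, and 0 to 5 with 1 library left out, while 0 members passed under each of these. Members called DEGs in IMQ + XYF against VAS + H2O, 1 as reported, were 2 with the replicate block, which added Casp14 (log2 fold change 1.23, edgeR adjusted p = 0.0494), and 0 to 3 with 1 library left out. All genes passing there, 5152 as reported, numbered 3221 to 4544 with 1 library left out, lowest without IMQ + XYF replicate 3. Libraries of the same number did not deviate together (r of -0.13 to 0.11, and 2 of 9 libraries correlated best with their own number), so the numbers were not read as pairs, and the block changed no other call of a member. Of 117 log2 fold changes of members recomputed per comparison, 111, 117 and 114 kept their side of the threshold. No value past the test changed sign, while 6, 12 and 5 values that did not pass changed sign. Counts of listed genes with each library left out were added after seeing the data. Padi3, with 0 to 6 counts per library, was not tested at this depth.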
